A study of Mus musculus with 3 samples.

Results

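The insulin-like growth factor axis was followed in melan-a NRAS61K cells, an immortalized mouse melanocyte line that carries the NRAS61K oncogene. The axis was taken as 10 genes: the ligands Igf1 and Igf2, the receptors Igf1r and Igf2r, and the 6 binding proteins Igfbp2 to Igfbp7. They were chosen by name, with earlier results of these data known, out of 18194 genes with a probe set of their own. Every probe set annotated to a member alone was used, which gave 28 of 34958. The cells had been kept in 1 µg/ml doxycycline for 6, 14 or 28 days, and total RNA of each time point went onto 1 Affymetrix array. All 3 arrays share the line, the oncogene, the drug and its dose, and the labels separate them by time with doxycycline. With 1 array for each time point, time cannot be told apart from differences between cultures or between hybridizations. Doxycycline is an antibiotic often used to switch on regulated genes, and what it controls in these cells is not stated in the labels. The title of the series concerns highly tumorigenic cells obtained from cells made senescent by this oncogene, and the arrays follow expression over that course. No untreated array was analysed here, so each value is set against another day of treatment. Day 14 against day 6 is called the first step, day 28 against day 14 the second step, and day 28 against day 6 the whole course.

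Insulin-like growth factors are secreted peptides that signal for growth and survival through the tyrosine kinase receptor IGF1R. IGF2R takes up and degrades IGF2 and also carries newly made lysosomal enzymes, while the binding proteins hold the ligands and set how much reaches the receptor. Igf2 is imprinted and is mainly a fetal gene. Melanocytes respond to insulin-like growth factors, and several binding proteins are known as secreted products of senescent cells.

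Igf2 was the member that differed most between the arrays. On 1 of its 2 probe sets it lay below the background at day 6, appeared at day 14 and was far higher at day 28. The other Igf2 probe set lay below the background on every array. Igfbp3 and Igf2r were higher at each later day on both of their probe sets, and Igfbp5 was highest at day 14 on 1 of its 2 probe sets. Igf1 lay below the background on every array, while Igf1r, Igfbp2, Igfbp4, Igfbp6 and Igfbp7 were less than 2-fold apart in every comparison. With 1 array for each time point these differences describe 3 arrays, and no p-value or spread between cultures can be given.

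The sequence just before the annotated transcription starts, from RefSeq, is shown for Igf2, Igf2r, Igfbp3 and Igfbp5, the 4 members with a 2-fold difference. Igf2 has 4 annotated starts, and which of them was in use was not tested. Each sequence is the 120 bases before a start in the GRCm38.p6 build, read 5′ to 3′ on the gene's strand, which is the minus strand for all 7. The Igf2 starts lie after chr7:142666817-142666936, chr7:142661272-142661391, chr7:142658805-142658924 and chr7:142657497-142657616, in the order of transcription. The others are chr17:12769707-12769826 for Igf2r, chr11:7213924-7214043 for Igfbp3 and chr1:72874866-72874985 for Igfbp5. Capitals mark matches on either strand to 6 motifs. They were the GC box with the letters GGGCGG, E-boxes with the letters CACGTG or alternatively CATGTG, then elements of the TATA kind spelled TATAAA or otherwise spelled TATATA, and the AP-1 element spelled TGANTCA, none of which overlapped another here.
Igf2, start 1: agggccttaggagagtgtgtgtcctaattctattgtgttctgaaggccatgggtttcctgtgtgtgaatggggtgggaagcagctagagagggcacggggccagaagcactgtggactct
Igf2, start 2: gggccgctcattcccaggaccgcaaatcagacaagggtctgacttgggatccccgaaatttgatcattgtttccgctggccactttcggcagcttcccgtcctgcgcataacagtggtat
Igf2, start 3: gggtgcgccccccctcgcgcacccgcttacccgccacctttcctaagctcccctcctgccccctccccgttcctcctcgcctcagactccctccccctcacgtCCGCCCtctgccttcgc
Igf2, start 4: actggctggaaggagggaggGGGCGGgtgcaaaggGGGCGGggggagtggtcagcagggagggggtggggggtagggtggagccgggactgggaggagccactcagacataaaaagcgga
Igf2r: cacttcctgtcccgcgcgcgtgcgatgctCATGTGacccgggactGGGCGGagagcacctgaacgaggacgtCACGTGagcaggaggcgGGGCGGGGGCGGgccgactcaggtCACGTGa
Igfbp3: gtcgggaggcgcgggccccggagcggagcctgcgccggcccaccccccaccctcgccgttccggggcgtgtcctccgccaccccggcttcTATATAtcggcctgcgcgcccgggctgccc
Igfbp5: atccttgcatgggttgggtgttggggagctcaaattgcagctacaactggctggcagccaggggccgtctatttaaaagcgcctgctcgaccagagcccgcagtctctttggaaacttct
Before the third Igf2 start there was 1 GC box, before the fourth there were 2, and before the first and second, as before that of Igfbp5, no match was found in the 250 bases searched. A GC box was present in 32.7% of 32851 promoter windows of that length, and 2 or more in 16.7%. The Igf2r window held 2 copies of CACGTG, whose first bases lay 48 and 7 bases before the start, with 1 copy of CATGTG and 3 GC boxes. Of all windows, 6.02% held CACGTG, 0.429% held at least 2 copies of it, and 12.3% held CATGTG. The Igfbp3 window held TATATA, beginning 30 bases before the start, as 5.25% of windows did. These matches describe letters, and no binding was measured.

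Values are the deposited ones, on a scale read as log2, with 1 value for each probe set and array. Background was set on each array from 96 probe sets of 60 genes that pigment cells are not known to use, at their 90th percentile. This gave 22.81 for day 6, 22.57 for day 14 and 22.76 for day 28. Of the 28 member probe sets, 16 lay above it on all 3 arrays, 19 on at least 1 and 9 on none. The spread between probe sets of 1 gene was the only measure of error at hand. It covers disagreement between probe sets on the same arrays. Errors that those probe sets share on an array, and differences between cultures, are not in it. Its SD, in log2 differences, was 0.30 in the first step, 0.24 in the second step and 0.32 over the whole course. A difference of 1 on the log2 scale, which is 2-fold, was used to call values apart. Counts and medians took values as measured, also those below the background on 1 array, while folds against such a value are given as bounds. Values of different probe sets are not compared with each other, since probes differ in brightness.

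**Figure D1:**
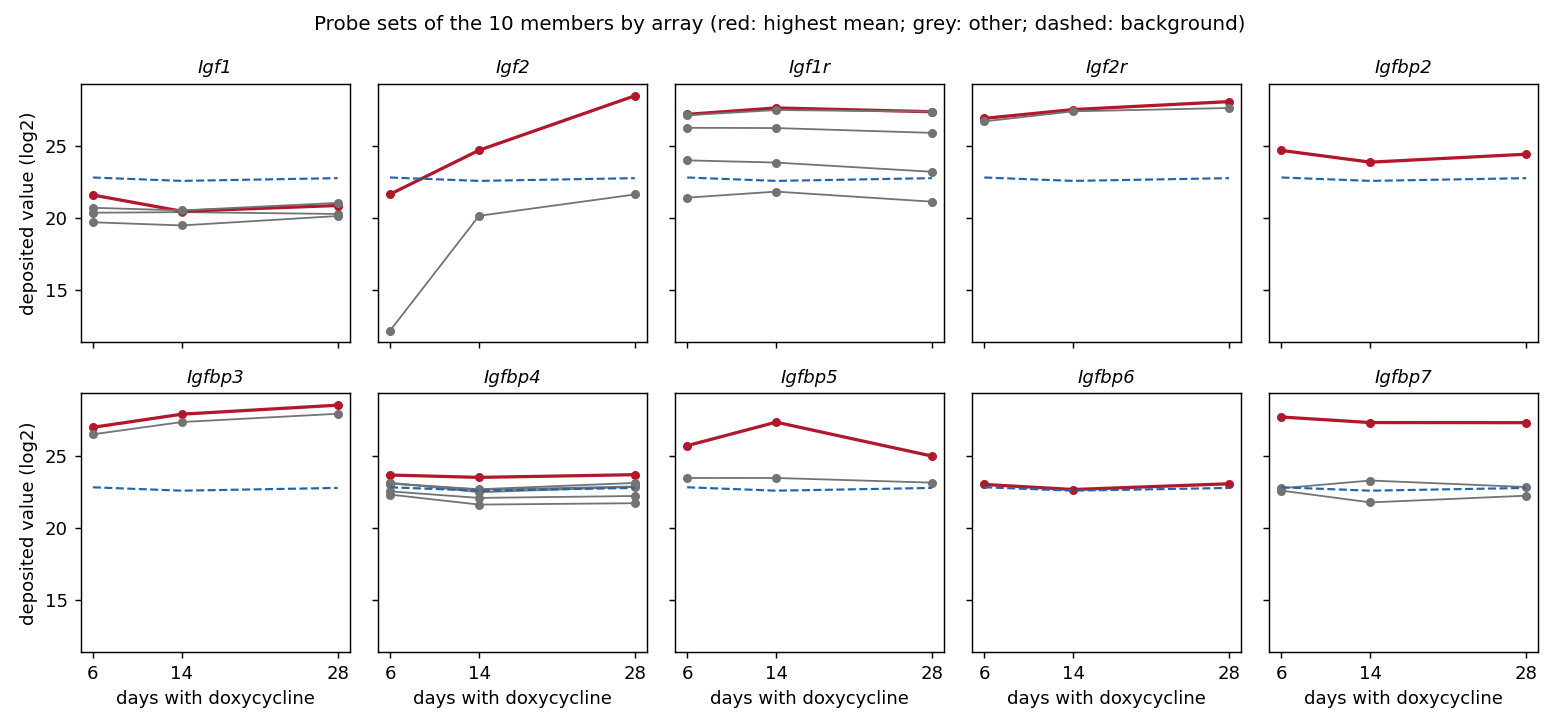
Deposited log2 value (vertical axis) by days with doxycycline (horizontal axis) for all 28 probe sets of the 10 genes, 1 array per day. Red lines are the probe set with the highest mean of each gene, grey lines the others, and the dashed line is the background. The main Igf2 probe set runs from 21.65 through 24.69 to 28.46, crossing the background after day 6, while the 4 Igf1 probe sets stay under it.

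Among the ligands, Igf2 had values of 21.65 at day 6, 24.69 at day 14 and 28.46 at day 28 on its main probe set. Only the day 6 value lay below the background, by 1.16. Read against that background, Igf2 was higher by at least 3.69-fold in the first step and by at least 50.3-fold over the whole course. Between days 14 and 28, both above the background, it was 13.6-fold higher. Among the 11095 genes above the background on both of these arrays, that step was the third highest. In RNA of a whole culture, more cells with a transcript and more of it in each cell cannot be told apart.

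The other Igf2 probe set gave 12.21, 20.16 and 21.63. It kept the same order of days, yet all of its values lay below the background and no fold is given. Averaging both probe sets put Igf2 under the background at days 6 and 14.

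Igf1, the ligand that mediates much of the action of growth hormone, had 4 probe sets, and none of their 12 values reached the background. They ranged from 19.49 to 21.60. Igf1 mRNA was therefore not detectable at this signal on any of the arrays, which is not proof of its absence.

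Of the receptors, Igf2r had values of 26.90, 27.51 and 28.06 on its main probe set and of 26.69, 27.39 and 27.62 on the other, in order of time. On both probe sets day 6 was lowest and day 28 highest. Day 28 against day 6 gave log2 differences of 1.16 and 0.93, that is 2.24-fold and 1.90-fold, so only the main probe set passed 2-fold. The probe sets differed by 0.24 in this comparison, less than the SD of 0.32.

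Igf1r, the signalling receptor, had 5 probe sets, of which 4 lay above the background on all arrays. Its main probe set gave 27.18, 27.62 and 27.36. The 4 probe sets differed by -0.15 to 0.45 at day 14 against day 6 and by -0.64 to -0.11 at day 28 against day 14. For day 28 against day 6 they ran from -0.79 to 0.26, so the sign depended on the probe set and no direction was read.

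Among the binding proteins, Igfbp3, the main carrier of the ligands in blood, was the one with a difference of over 2-fold on more than 1 probe set. Its values were 26.96, 27.87 and 28.49 on the main probe set and 26.47, 27.32 and 27.89 on the other. Each later day was higher on both. The other probe set carries the suffix s_at, which marks probes shared with other transcripts in the array maker's design, so it may not measure Igfbp3 alone. Day 28 was 2.89-fold higher than day 6 on the first and 2.68-fold higher on the second. The log2 differences of the probe sets were 0.91 and 0.85 in the first step and 0.62 and 0.57 in the second, gaps well under the SD between probe sets of a gene.

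Igfbp5, a matrix-bound binding protein, had values of 25.69, 27.31 and 24.97 on its main probe set. Day 14 stood above both other days. It was 3.09-fold higher in the first step and 5.08-fold lower in the second, the third lowest difference of the 11095 genes above the background on both arrays. The other Igfbp5 probe set gave 23.45, 23.45 and 23.13 and showed no such peak. It lay only 0.65, 0.88 and 0.37 above the background, against 2.88, 4.74 and 2.20 for the main probe set. Whether it is bright enough to show a peak was not tested. The gap between the probe sets was 1.63 in the first step and 2.02 in the second, against SDs of 0.30 and 0.24. The main probe set of Igfbp5 also carries the suffix s_at. Which transcripts it detects was not tested, and without such probe sets Igfbp5 was no longer 2-fold apart in either step.

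The remaining binding proteins were less than 2-fold apart in all 3 comparisons. Igfbp2 had values of 24.68, 23.87 and 24.42 on its single probe set, lowest at day 14 and 1.76-fold lower there than at day 6. Igfbp7, a weak binder of the ligands that is secreted into the matrix, gave 27.67, 27.29 and 27.28 on its main probe set, highest at day 6 by 0.39 on the log2 scale, although day 14 lay 0.04 above day 6 when the arrays were scaled to reference genes. Of its other 2 probe sets, 1 gave 22.74, 23.28 and 22.83, below the background at day 6, and 1 lay below it on every array.

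Igfbp4 had 6 probe sets, of which 3 lay above the background on all arrays and 2 on none. Its main probe set gave 23.66, 23.49 and 23.68, and those above the background on both arrays differed by -0.29 to 0.03 between days 28 and 6. Igfbp6, which prefers IGF2 over IGF1, gave 23.00, 22.65 and 23.05, at most 0.29 above the background.

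**Figure D2:**
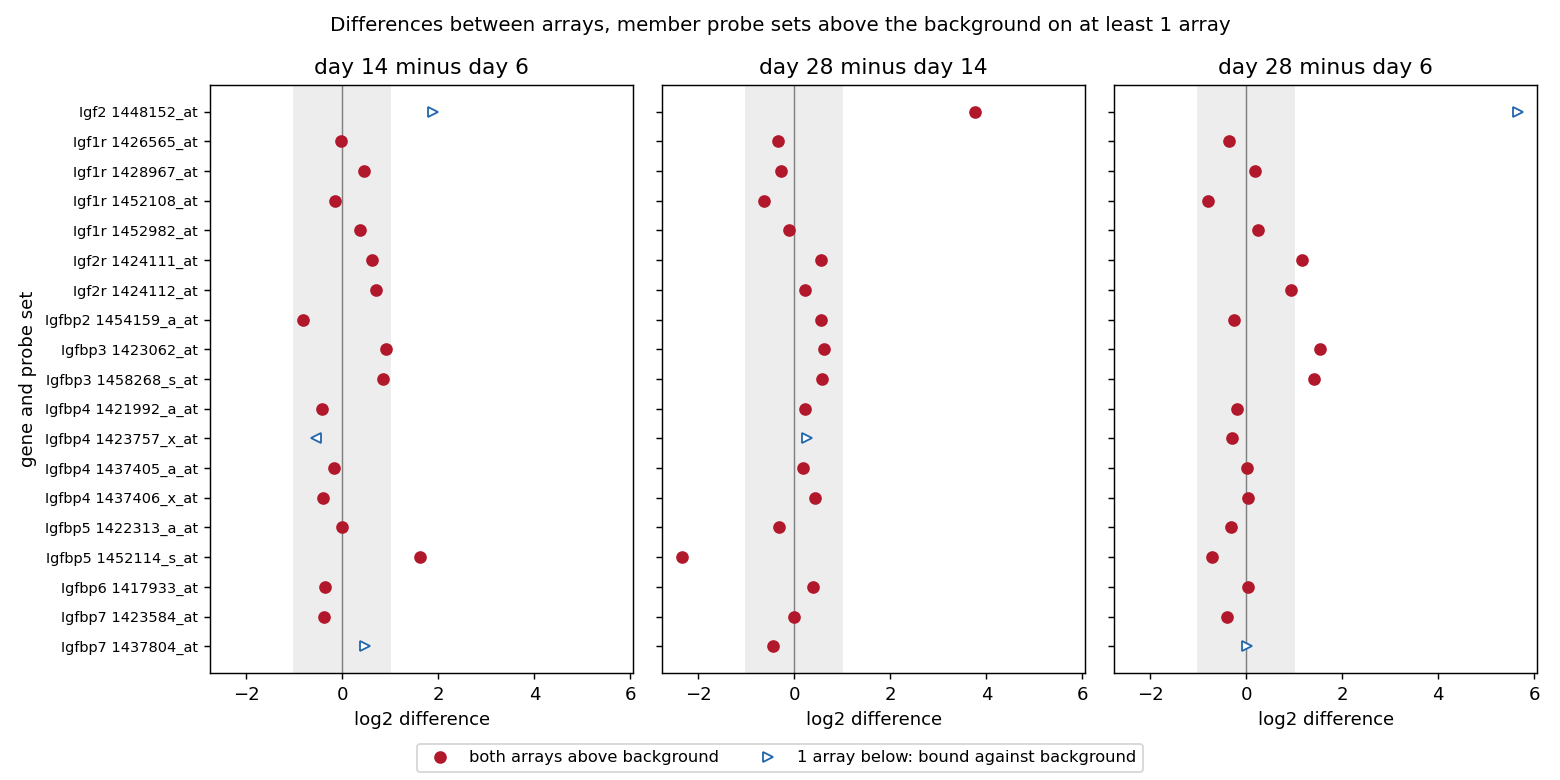
Log2 difference between arrays (horizontal axis) for the 19 member probe sets above the background on at least 1 array (vertical axis), in 3 panels for the 3 comparisons. Filled circles have both arrays above the background, open triangles are bounds against the background where 1 array lay below it, and the grey band spans differences under 2-fold. Igf2 and 1 Igfbp5 probe set lie outside the band in both steps, and both Igfbp3 probe sets lie outside it for day 28 against day 6.

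Counted over probe sets in the first step, 2 of 19 members were 2-fold higher and 0 lower. Among all 21301 probe sets that exceeded the background on either array, 9.61% were apart, 5.42% higher and 4.19% lower. The second step had 1 of 19 members higher and 1 lower, beside 4.02% of all probe sets, 1.79% higher and 2.23% lower. Over the whole course 4 of 19 were higher and 0 lower, beside 10.9% of all, 5.92% higher and 4.99% lower. The share of members was 10.5%, 10.5% and 21.1% in that order, so in the first step it lay near that of all probe sets. The members behind these counts belong to 4 genes, and several share a gene. Since the members were chosen with earlier results of these data known, the shares describe them and test nothing.

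Counted with 1 probe set for each gene, Igf2 and Igfbp5 of 9 genes were 2-fold higher in the first step and 0 lower, beside 9.36% of all genes, 5.48% higher and 3.87% lower. In the second step Igf2 was higher and Igfbp5 lower, beside 3.67% of all genes, 2.22% higher and 1.45% lower. Over the whole course Igf2, Igf2r and Igfbp3 were higher and 0 lower, beside 10.6% of all genes, 6.63% higher and 4.01% lower. The median log2 difference of the 9 genes was 0.45, 0.40 and 0.05 in that order, beside -0.03, 0.03 and 0.01 for all genes. Those medians rest on 1 probe set chosen for each gene, and over the 19 member probe sets they were -0.0019, 0.23 and 0.03, beside -0.03, 0.0043 and -0.03 for all probe sets. The 3 comparisons share arrays, so an error of 1 array enters 2 of them.

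With the arrays set to equal medians of 9 reference genes, the median of all genes moved to 0.39 in the first step and to -0.32 in the second. On all 3 arrays that median was the value of Pgk1, at 29.34, 28.92 and 29.27, so this scaling rests on 1 gene. The reference genes differed by -0.81 (Hprt) to 0.35 (Sdha) in the first step, with Pgk1 at -0.42. In the second step they differed by -0.14 (Sdha) to 0.36, the highest being Pgk1. Igf2r and Igfbp3 then also passed 2-fold in the first step, at 1.03 and 1.33, because every gene moved by the same amount. Over all probe sets, 1154 were higher and 893 lower in the first step as deposited, 3025 and 173 with that scaling, and 987 and 1177 with the arrays set to equal hybridization controls. In the second step the split was 379 and 473 as deposited and 166 and 1215 with the reference genes. Igf2, Igf2r and Igfbp3 kept their direction in all 3 comparisons, and Igfbp5 did on its main probe set, under both scalings. Each scaling shifts all genes of an array alike. Where the shift opposed these differences it was smaller than they were, so this outcome was fixed in advance.

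**Figure D3:**
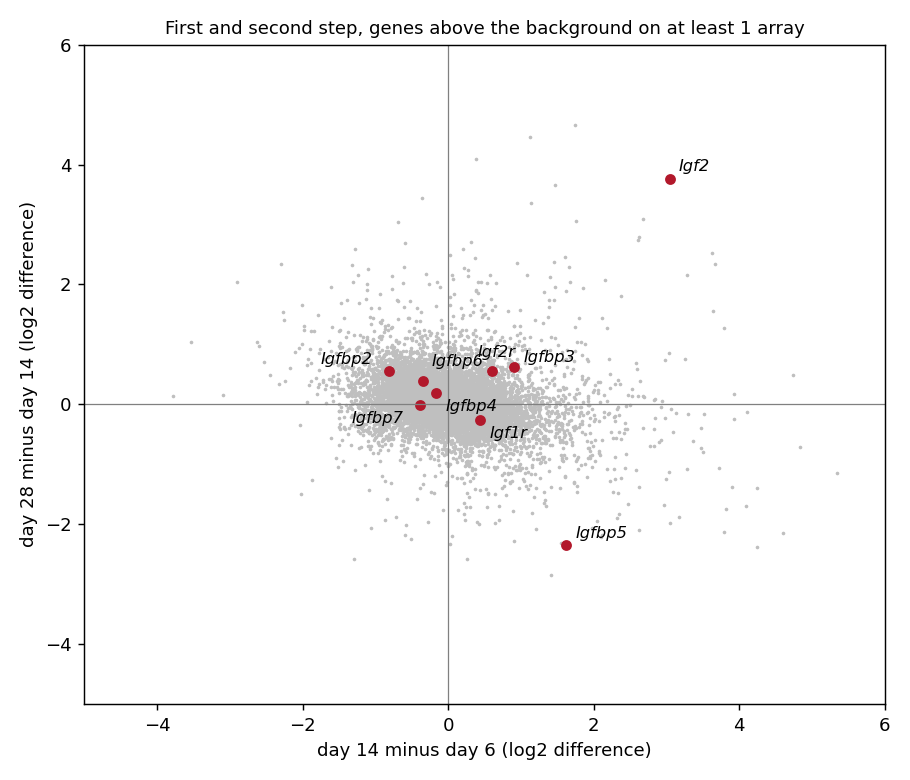
Log2 difference of day 14 minus day 6 (horizontal axis) against that of day 28 minus day 14 (vertical axis) for 11965 genes above the background on at least 1 array (grey), with 9 genes of the axis in red and 1 probe set for each gene. Values are as measured, so the first step of Igf2, at 3.04, starts below the background. Igf2 lies far to the upper right and Igfbp5 to the lower right, while the other 7 lie within 1 of zero on both axes. Both axes use the day 14 array with opposite signs.

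Genes with the course most like that of a member were taken as those nearest in both steps, by Euclidean distance over 3 arrays. For Igf2 this took Ryr3, a calcium release channel gene, the collagen gene Col20a1 and the milk protein gene Csn3. Their distances from Igf2 were 0.78, 1.07 and 1.12 in that order, on the log2 scale. Since the day 6 value of Igf2 lay below the background, its first step is only a bound, so these distances are uncertain. Ryr3 gave 19.48, 22.16 and 25.24, so only its day 28 value lay above the background. Col20a1 lay below the background at day 6 and gave 24.62 and 27.40 after it, and Csn3 gave 24.79, 27.41 and 30.14. For Igfbp5 the nearest were Stox2 at 0.08, the receptor phosphatase gene Ptprd at 0.45 and the pigment enzyme gene Tyrp1 at 0.49. Tyrp1 gave 27.58, 29.67 and 27.47 and Stox2 25.44, 26.99 and 24.69, each with its highest value at day 14.

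Other genes of the pathway were read from lists, with 1 probe set for each gene, beside the shares of all genes given above (9.36%, 3.67% and 10.6% apart in the first step, the second step and over the whole course). Among relatives of the ligands and binding proteins, 14 of 15 were matched and 8 or 9 lay above the background in a comparison. Over the whole course 2 of 8 were higher and 2 lower, with a median of -0.11 beside 0.01 for all genes. Insr, the insulin receptor gene, which also binds IGF2 in 1 of its forms, had 25.31, 26.33 and 26.57 and was 2.39-fold higher over the whole course. Another Insr probe set gave 23.03, 22.57 and 22.92, with the day 14 value below the background, and did not show this.

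The CCN genes encode matrix proteins with a domain like that of the binding proteins. Ccn2 gave 26.54, 28.32 and 26.87 and was highest at day 14, 3.43-fold above day 6 and 2.74-fold above day 28. Ccn1 gave 28.51, 28.48 and 27.13 and was 2.60-fold lower over the whole course, and Ccn4, at 27.14, 26.64 and 25.83, was 2.47-fold lower. Ccn5 was above the background only at day 28, at 23.24, and at least 1.35-fold higher over the whole course, so it counts as 2-fold apart only by its measured value.

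Genes of binding protein proteases and of stanniocalcins, which inhibit the protease PAPP-A, were all matched. Over the whole course 2 of 10 were higher and 1 lower, with a median of -0.08 beside 0.01 for all genes, of which 10.6% were apart. Adam12, a membrane protease that cleaves IGFBP3 and IGFBP5, gave 23.62, 26.61 and 25.37. It was 7.98-fold higher in the first step and 2.36-fold lower in the second step, and its other probe set gave log2 differences of 2.99 and -1.15. Stc1 gave 23.06, 23.32 and 24.55 and was 2.80-fold higher over the whole course. Its other probe set gave 22.41, 22.25 and 21.90, below the background on every array, and did not show this. Pappa lay above the background only at day 6, at 23.41, and was at least 1.78-fold lower in the first step, so it counts as 2-fold apart only by its measured values.

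Of the adaptors and attenuators that act below the receptor, 2 of 14 were higher and 0 lower in the first step, and 0 of 15 were apart in either direction in each of the other 2 comparisons. The medians were -0.09 and 0.04 in the steps and 0.31 over the whole course, beside -0.03, 0.03 and 0.01 for all genes. The docking protein gene Irs2 gave 24.28, 25.38 and 24.80 and was 2.14-fold higher in the first step, and Gab1, another docking protein gene, was 2.08-fold higher.

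Of 25 genes of PI3K, AKT and MTOR signalling, 1 was higher and 2 lower in the first step, 0 higher and 1 lower in the second, and 1 higher and 1 lower over the whole course. Their medians were 0.17, 0.02 and 0.17. Of all genes, 5.48% were higher and 3.87% lower in the first step. Foxo1, a transcription factor that AKT holds inactive, gave 24.22, 25.32 and 25.71 and was 2.81-fold higher over the whole course. Eif4ebp1, a translation inhibitor controlled by MTOR, gave 28.66, 26.90 and 27.82 and was 3.38-fold lower in the first step. Of its other probe sets, 1 had a log2 difference of -1.67 in that step and 1 of only -0.30. Pik3cb, a catalytic subunit gene, was 2.22-fold lower over the whole course. Pik3r3, a regulatory subunit gene, was 2.15-fold lower in the second step.

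Igf2bp1 encodes a protein that binds Igf2 mRNA. It gave 24.16, 22.88 and 21.78, with the last value under the background, so it was lower by at least 2.63-fold over the whole course. All 4 of its probe sets had their highest value at day 6 and their lowest at day 28, the reverse of the order of Igf2. Apart from the main probe set, however, they lay below the background at days 14 and 28, and 1 of them at day 6 too. Of the 3 genes of this list above the background, 0 were higher and 1 lower over the whole course, with a median of -0.58 beside 0.01 for all genes, of which 6.63% were higher and 4.01% lower. Igf2bp3 gave 26.83, 26.29 and 26.25.

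Among imprinted growth genes, 19 of 22 were matched, and 0 of 10 were 2-fold apart in the first step and 0 of 11 in the second. Over the whole course 1 of 11 was higher and 1 lower, with a median of 0.08 beside 0.01 for all genes, of which 6.63% were higher and 4.01% lower. Mest gave 27.95, 27.28 and 26.36 with a log2 difference of -1.58 over the whole course. Magel2 exceeded the background only at day 28, at 23.18, at least 1.29-fold above day 6, and counts as 2-fold apart only as measured. H19, the imprinted neighbour of Igf2, was not matched to a probe set and is not analysed here.

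The labels give melanocytes, and this cell type and others were checked by marker genes. Of 10 melanocyte markers, 8, 9 and 8 lay above the background in order of time, with Dct at 23.83, 29.17 and 28.03, while Tyr lay below it on every array. The mean of this list was 24.01, 26.28 and 25.37, highest at day 14. In the first step 7 of 9 were 2-fold higher and 0 lower, beside 5.48% and 3.87% of all genes. In the second step 0 of 9 were higher and 5 lower, beside 2.22% and 1.45% of all genes. Over the whole course 4 of 8 were higher and 0 lower, beside 6.63% and 4.01%. The means of the Schwann and glial list, at 24.23, 25.02 and 24.72, and of the fibroblast list were also highest at day 14. Of 6 matched Schwann and glial markers 4, 4 and 3 lay above the background. Over the whole course 2 of 4 were higher and 1 lower, beside 6.63% and 4.01% of all genes. S100b was 4.38-fold higher and Mbp at least 2.25-fold lower. Of 8 fibroblast markers, 5 lay above it on each array and Lum and Thy1 on none. The mean level of the fibroblast list was 23.16, 23.59 and 23.47. The median difference of its 6 genes above the background was 0.06 over the whole course, beside 0.01 for all genes. Pdgfra was 3.06-fold higher and Dcn at least 1.18-fold higher, while Col1a1 differed by -0.37, Col3a1 by -0.08 and Pdgfrb by 0.21, and Col1a2 was at least 1.17-fold lower. The other Pdgfra and Dcn probe sets lay below the background on every array and were not higher. In the macrophage list 5 of 8 lay above the background on each array, with Ptprc, Itgam and Cd14 on none, and the median of the 5 was 0.11 over the whole course. Lyz2 was 6.70-fold higher, while Cd68 differed by 0.89, Fcgr1 by 0.11, Adgre1 by -0.13 and Csf1r by -0.31. Of 8 endothelial markers only Cdh5 lay above the background, at 23.70, 25.85 and 27.93. Of 7 matched keratinocyte markers 2 did so on each array, Krt5 and Krt10. Of 8 smooth muscle markers 3, 5 and 4 did. Over the whole course 1 of 4 was higher and 3 were lower, beside 6.63% and 4.01% of all genes. Actg2 was 5.91-fold lower, Tagln 4.51-fold and Acta2 2.04-fold, while Rgs5 was at least 1.92-fold higher. The part of other cells in the results above was not tested.

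Actb 3′ minus 5′ differences, a sign of RNA quality, were 0.58, 0.76 and 0.75 in order of time. Added poly-A control RNA had means of 23.47, 23.69 and 23.91, higher at each later day as Igf2, Igf2r and Igfbp3 were, and its part in those results was not tested. Nras gave 26.92, 26.48 and 26.70 on its main probe set, and whether that detects the introduced oncogene is not known here. Of the reference genes, Actb differed by -0.31 and Gapdh by -0.40 over the whole course.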

How the data were processed

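Total RNA of melan-a NRAS61K cells at 3 time points was labelled with biotin and hybridized to Affymetrix arrays, per the labels' protocols. The deposited table holds 45101 probe sets with a value for each array, read here as log2. Neither the log base nor the summarization is given in the sources used here. The sorted values of the 3 columns were identical, so the authors had quantile normalized them, which removes any change common to most genes. Since each array spans 1.46 to 30.6 around a median of 22.9, a constant or another scaling had been applied, and folds assume base 2 and an added constant. Hybridization controls rose by 0.79 to 0.80 per log2 unit of nominal concentration.

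Gene names came from the platform annotation, which gave 1 gene for 34958 probe sets, several for 932 and none for 9211. Of those with 1 gene, 34754 had an identifier in a RefSeq gene table of GRCm38.p6. Each gene was read from the probe set with the highest mean. A probe set entered a comparison when either array exceeded the background. A value below it gave a bound. Calls were log2 differences of at least 1. Named genes were the members, up to 3 genes of each list per comparison with the largest called differences, up to 2 per marker list, the 2 genes on each side of a member, and the 3 nearest in course to the 2 members with the largest differences. Igf2bp3, Krt5, Krt10 and the marker genes beyond 2 per list were named after their values were seen. The members and lists were chosen with earlier results of these data known. The number of arrays limits the precision, and no test between time points was possible. The probe set annotated to both Airn and Igf2r was left out. Python 3.11.15, numpy 2.4.6 and pandas 2.3.3 were used. The rule for calls was run on simulated data with planted differences larger than its threshold, in genes well above the background. That most would pass was fixed in advance, so this run checks the code and not the error of these arrays. Alternatives covered the background, dim values, fold, scaling, shared probe sets and averaging of probe sets.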

Additional observations from a re-analysis of the deposited data

How the results depend on the processing

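No paired analysis was possible because each time point had 1 array, and for the same reason no replicate could be left out. Of 66 alternative counts, 46 stayed within 1.5 times the value reported. At 1.5-fold, 8, 4 and 7 of 19 member probe sets were apart in the first step, the second step and over the whole course. Of all probe sets, 6116 of 21301, 2860 of 21194 and 6164 of 20906 were. In the first step 5 of 9 member genes were apart at 1.5-fold. The share of all genes was not computed under the alternatives, so the member gene counts have no such share beside them. Without a background filter, 4, 3 and 5 of 28 member probe sets were apart in that order, beside 4472, 3142 and 4786 of all 34958. With reference gene scaling, 6 of 19 member probe sets, 4 of 9 member genes and 3198 of all 21301 probe sets were apart in the first step. In the second step 2 of 19 member probe sets and 1381 of all 21194 were. Without shared probe sets, 1 of 15 member probe sets and 1 of 9 member genes were apart in each step, since the main Igfbp5 probe set was left out. Of all probe sets, 1788 of 18645 were apart in the first step and 775 of 18587 in the second. With probe sets averaged, 0 of 8 member genes were apart in the first step: Igf2 then lay under the background on both arrays and Igfbp5 came to 0.81. In the second step averaging gave 2.62 for Igf2 and -1.33 for Igfbp5. No called difference of a member that could still be read changed its sign under averaging, the 2 scalings or raising values to the background. The scalings moved whole arrays by less than 1 on the log2 scale, so they could not have reversed a called difference. The sign changed in 3 of 25 member differences with averaging, 2 of 27 with hybridization control scaling and 4 of 27 with reference gene scaling, all of them under 2-fold and in Igf1r, Igfbp4, Igfbp6 or Igfbp7. Signal over background limits Igf1, Igfbp6, Igfbp4, the Igfbp5 probe set without a peak and every fold of Igf2 against day 6.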

Other observations

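The genes next to the members on the chromosome, taken as 2 on each side, were measured in part. Beside Igf2, Igf2os, a transcript from the opposite strand, gave 21.94, 22.28 and 22.63 and lay below the background on all arrays. Igfbp2 and Igfbp5 lie next to each other on chromosome 1, and their main probe sets differed in opposite directions in both steps, by -0.81 and 1.63 in the first and by 0.55 and -2.34 in the second. Igfbp1, next to Igfbp3 on chromosome 11, lay below the background on all arrays at 19.62, 18.82 and 19.14.

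Airn, the noncoding antisense transcript at the Igf2r locus on chromosome 17, gave 26.44, 26.73 and 27.00, a log2 difference of 0.57 between days 28 and 6 beside 1.16 for Igf2r. A probe set annotated to both Airn and Igf2r gave 22.72, 22.83 and 22.96. Near Igfbp6, Csad, an enzyme gene of taurine synthesis, gave 25.29, 26.54 and 26.34, and Tns2 gave 24.74, 25.81 and 25.44, while Spryd3 differed by -0.06 between days 28 and 6. Next to Igfbp7, Polr2b differed by -0.12 and Noa1 by -1.08 between the same days. Top2a, near Igfbp4, gave 28.62, 28.10 and 27.78.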
